A study of Rattus norvegicus with 111 samples.

Results

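Fetal liver was examined after maternal dosing with the perfluoroalkyl ether carboxylic acid PFO5DoA at 10 mg/kg/d. The members were 9 of the 111 libraries of the series, namely the fetal livers of 4 dams dosed at 10 mg/kg/d (dams 2276, 2277, 2283 and 2284) and of 5 control dams at 0 mg/kg/d (dams 2263, 2264, 2265, 2278 and 2280). A sixth control, dam 2279, was dropped because its fetal library held 45504 counts. All were time-mated Sprague-Dawley rats aged about 11 to 12 weeks, given oral doses from gestational day 18 to 22. The dosed dams received PFO5DoA, and the control dams belonged to the 0 mg/kg/d group. Both groups carry the same vehicle label, 0.5% Tween-80. Livers were taken 2 to 4 hours after the last dose. Each fetal library came from a subsample of fetal liver of 1 dam. Whether it held 1 fetus or several, and of which sex, is not given in the sources used here. The dam, a separate animal, is the replicate throughout. A second compound, PFO4DA, was given to other dams with controls of their own. PFO5DoA is the longer of the pair, its chain carrying 1 more difluoromethoxy unit.

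Column names identify the dam only, so the fetal library of a dam was chosen by measured values. Of a dam's 2 libraries, the one with the higher Pearson correlation, over all genes, with the only library of dam 2286, which the labels call maternal, was taken as maternal. In the 9 dams that correlation lay between 0.943 and 0.9864 for the library called maternal and between 0.8716 and 0.9226 for the one called fetal. The smallest gap within a dam was 0.0567 and the largest 0.1012. Spearman's correlation picked the same library in all 9. Because the rule used these values, the difference between fetal and maternal liver is not a result here. The tables name genes by Ensembl identifier alone, and 0 of the 20311 identifiers could be matched to a symbol in the available reference. The stage could therefore not be checked against liver or blood cell markers, and pathways could not be read by name.

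Near term the liver of the rat fetus is both a blood-forming and a metabolic organ, and its expression programme differs widely from that of the adult. Perfluoroalkyl acids with a carboxylic head group resemble fatty acids. Many of them bind nuclear receptors of the PPAR family, which control lipid metabolism genes in hepatocytes. In the fetus these compounds arrive across the placenta, so the dose given to the dam is not the dose in the fetal liver.

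The 9 libraries held between 9468824 and 12697317 counts. Libraries of the whole series, leaving out the low one, spanned 7133025 to 15254954. Of the genes in the table, 11509 had enough counts in the fetal libraries to be tested, and 8802 did not. Some libraries stood apart. In a multidimensional scaling of the fetal libraries, in which distance is the typical log2 difference of the genes that differ most between each pair, the dosed fetal livers of dams 2277, 2276 and 2283 sat at 0.56, 0.68 and 1.00 on the first dimension. That of dam 2284 sat at 1.55, closer to the 30 mg/kg/d libraries at 1.87 to 2.02. On the second dimension it lay at -0.63, where the other dosed livers lay at 0.54 to 0.76. Dam numbers fall into 2 consecutive runs, 2263 to 2277 and 2278 to 2288, each with its own controls. The labels do not call the runs batches. The control livers of the second run lay lower on the second dimension, at -1.52 and -1.23, than those of the first run, at -0.81 to -0.18. On the first dimension they lay at -0.52 and -0.62, above all livers at 0.3 and 1 mg/kg/d, which belong to the first run. Values without dam 2284, and within runs, stand beside the main results.

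**Figure D1:**
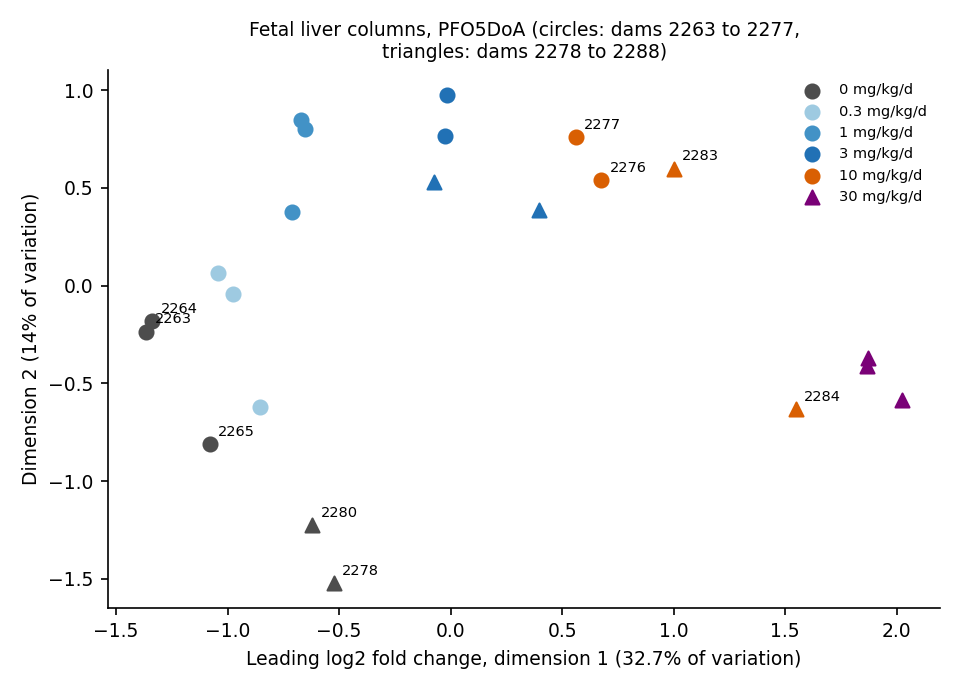
Multidimensional scaling of all fetal liver libraries of the PFO5DoA table. Each point is 1 dam, the axes are leading log2 fold changes (dimension 1 holds 32.7% and dimension 2 14% of the variation), colour gives the dose and the marker the run of dam numbers. Dam 2284, dosed at 10 mg/kg/d, lies beside the 30 mg/kg/d libraries at 1.55 on dimension 1.

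Which fetal liver genes change at 10 mg/kg/d was asked first. Expression rose for 806 genes and fell for 884 (edgeR's quasi-likelihood test, Benjamini-Hochberg adjusted p under 0.05). Together these 1690 genes were 14.7% of those tested, with rises at 7.0% and falls at 7.68%. At an unadjusted p under 0.05 the count was 3089. The median log2 fold change was 0.89 among the rises and -1.02 among the falls, against -0.02 over all genes tested. Of the rises, 350 were at least 2-fold, 160 at least 4-fold and 77 at least 8-fold. Of the falls, 457 were at least 2-fold, 115 at least 4-fold and 34 at least 8-fold. Changes of at least 4-fold were counted more often among rises than among falls. Of these, 79 rises and 13 falls were in genes under 1 CPM in PFO4DA control fetal livers. CPM are counts relative to the library total. Genes this low can enter the test through dosed livers alone, which can favour rises. The counts of large changes thus describe the genes that passed the filter, and the part of the filter in the excess of rises was not tested.

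Separation of the 2 groups was counted as well. In 637 genes all 4 dosed livers lay above all 5 control livers, and in 671 all lay below, together 11.4% of the genes tested. Of the 1690 called genes, 1127 showed such a separation. Another 181 genes separated the groups and did not pass the test. Among the rises, 5 genes held 0 counts in all 5 controls, and among the falls 1 gene held 0 counts in all 4 dosed livers. The number called depended on the fit: with the libraries at 0 and 10 mg/kg/d alone, which leaves fewer animals to estimate the spread, 808 genes passed. Without dam 2284, 1484 genes passed, 759 as rises and 725 as falls. Without dam 2276 it was 760 rises and 654 falls, so which direction was the more numerous changed with single livers. The run of dams as a covariate gave 913 rises and 958 falls, and a minimum fold of 1.5 as the null gave 508 genes.

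The largest called rises with separated groups and a mean of at least 5 CPM in either group were ENSRNOG00000017716 and ENSRNOG00000012851. Levels are in CPM, counts relative to the library total, scaled by TMM within the fit. Neither was detected in control fetal liver. Each held 0 counts in all 5 controls, which allows a level of up to 0.057 CPM by 3 counts over the group. Both genes thus entered the test through dosed livers alone, and they were then chosen for the size of their rise. Their adjusted p values come from the same livers as that choice and are not separate evidence of a rise. When only the dosed and control livers compared here were fitted, neither gene was tested.

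ENSRNOG00000017716 reached 4.30, 4.84, 12.8 and 0.155 CPM in the dosed fetal livers of dams 2276, 2277, 2283 and 2284. The liver of dam 2284, with 2 counts, was far below the other dosed livers and still above the controls. Over the groups the level was at least 105-fold higher than 3 counts in the controls, and the adjusted p was 8.33e-04 (edgeR). Without dam 2283, the highest liver, the level was at least 62.5-fold higher. Without dam 2284 the adjusted p was 1.53e-05 (edgeR).

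ENSRNOG00000012851 reached 3.67, 2.10, 15.5 and 0.232 CPM in the same 4 livers. Again dam 2283 was highest and dam 2284, with 3 counts, lowest. The level was at least 102-fold higher than that of 3 counts in the controls, with an adjusted p of 5.45e-04 (edgeR), and 2.95e-05 without dam 2284. Dam 2283 held most of the counts, and without it the level was at least 39.8-fold higher. Both genes rested on 262 and 254 counts in all over the dosed group, so single libraries weigh heavily.

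The largest falls by the same rule were ENSRNOG00000069588 and ENSRNOG00000004009. ENSRNOG00000069588 held 20.7, 19.7, 32, 23.7 and 21.0 CPM in the control livers of dams 2263, 2264, 2265, 2278 and 2280. In the dosed livers of dams 2276, 2277, 2283 and 2284 it held 0.448, 0, 0.421 and 0 CPM. No dosed liver came near the controls. The summed level was 101-fold lower, and the fitted log2 fold change was -6.74 (SE 0.59, adjusted p = 5.66e-08, edgeR). Without dam 2284 it was -6.30.

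ENSRNOG00000004009 held 115, 80.6, 146, 75 and 82.1 CPM in the control livers, in the same order of dams. The dosed livers held 2.33, 2.66, 1.85 and 1.32 CPM. The control mean was 99.8 ± 30.3 CPM (SD, n = 5) and the dosed mean 2.04 ± 0.586 CPM (SD, n = 4). Here the liver of dam 2284 was the lowest of all. The summed level was 43.4-fold lower, with a log2 fold change of -5.61 (SE 0.35, adjusted p = 3.19e-10, edgeR), and -5.43 without dam 2284.

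The other doses used the same control livers, so their values are set side by side only. In fetal liver 13 genes passed at 0.3 mg/kg/d, or 0.113% of those tested. The next dose, 1 mg/kg/d, gave 276 genes (2.4%), the dose of 3 gave 815 (7.08%) and that of 30 gave 3443 (29.9%). Rises outnumbered falls at the dose of 1, by 200 to 76, and at the dose of 3, by 458 to 357. At the dose of 30 falls were the more numerous, 1853 to 1590. In maternal livers of those dose groups 0 genes passed at the lowest dose. There 45 genes rose and 3 fell at the dose of 1, 192 rose and 89 fell at 3, and 2067 rose and 2155 fell at 30. The labels record lower body weight in the dams at 30 mg/kg/d and apparent toxicity to the fetuses of 1 of them. All dams at 0.3 and 1 mg/kg/d belonged to the first run of dams and all at 30 to the second, while controls came from both. The fits over doses had no term for run, so at those doses a run difference is not separated from dose.

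**Figure D2:**
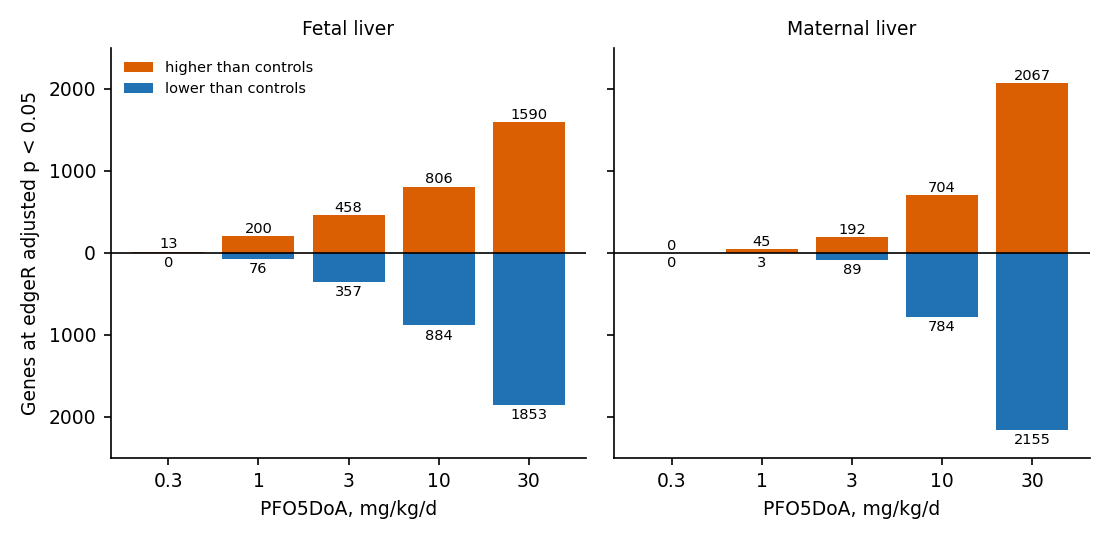
Genes past an edgeR adjusted p of 0.05 against the 0 mg/kg/d dams, by dose, in fetal (left) and maternal (right) liver. Orange bars above 0 count rises, blue bars below 0 count falls. At 10 mg/kg/d the fetal bars stand at 806 and 884 and the maternal bars at 704 and 784.

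The 4 genes differed in their order over doses. ENSRNOG00000069588 averaged 24.9 CPM at 0.3 mg/kg/d, 5.01 at 1, 2.81 at 3, 0.217 at 10 and 0.0561 at 30 mg/kg/d. The livers at 3 mg/kg/d, at 1.16 to 5.98 CPM, overlapped those at 1 mg/kg/d, at 4.24 to 6.44. ENSRNOG00000004009 averaged 73.8, 22.5, 7.24, 2.04 and 0.942 CPM over the same doses. Its livers at 0.3 mg/kg/d, at 55.9 to 109 CPM, overlapped the controls, and those at 30 mg/kg/d, at 0.508 to 1.34, overlapped those at 10, at 1.32 to 2.66. The dose of 0.1 mg/kg/d was left out of the fits. Without TMM scaling, its 2 livers held 9.97 and 14.2 CPM of ENSRNOG00000069588 and 39.8 and 58.8 CPM of ENSRNOG00000004009. On that scale the pooled controls held 23.1 and 97.6 CPM, so both genes were lower at 0.1 mg/kg/d than in the pooled controls. That difference was not tested.

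The 2 rises had their highest mean at 10 mg/kg/d, below the highest dose. ENSRNOG00000017716 ranged from 0.0944 to 1.10 CPM at the dose of 1 mg/kg/d and from 2.26 to 5.62 at that of 3. At 30 mg/kg/d it was between 0.167 and 0.847. ENSRNOG00000012851 ranged from 0.552 to 1.44 CPM at the dose of 1, from 1.5 to 6.44 at that of 3 and from 0.163 to 0.669 at that of 30. The liver of dam 2284 at 10 mg/kg/d, at 0.155 and 0.232 CPM, lay below every liver at 3 mg/kg/d and at or near the low end of those at 30. Against the controls, neither gene passed the test at 30 mg/kg/d, with edgeR adjusted p of 0.0582 and 0.0894, while both did at 3 mg/kg/d, with 0.0045 and 0.00317. The difference between 10 and 30 mg/kg/d was not tested. Livers at 30 mg/kg/d were all of the second run of dams, and those at 10 mg/kg/d of both runs.

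**Figure D3:**
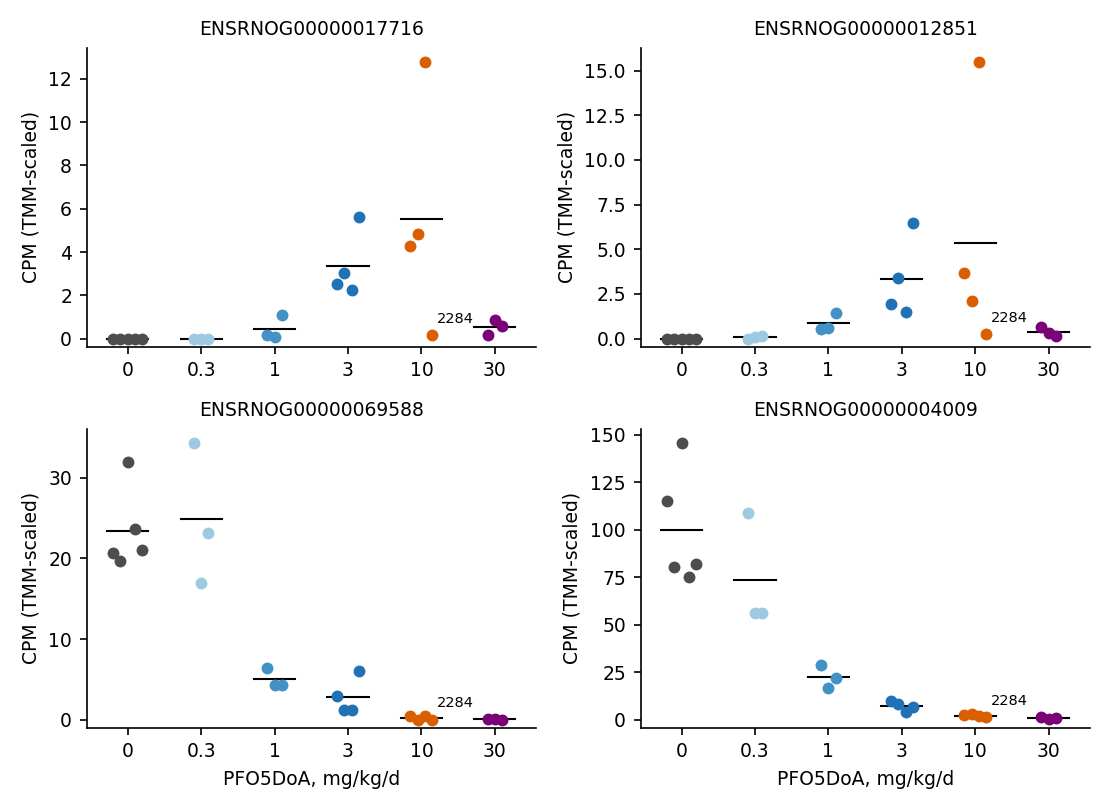
TMM-scaled CPM of the 4 genes in each fetal liver (points, 1 per dam) by PFO5DoA dose, with the group mean as a line. The upper genes are at 0 in all 5 controls. Their livers at 3 mg/kg/d, and all at 10 mg/kg/d but that of dam 2284, lie above those at 30 mg/kg/d. Among the doses shown, which leave out 0.1 mg/kg/d, the lower genes lie below all 5 controls from 1 mg/kg/d on. Dam 2284 is labelled at 10 mg/kg/d.

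The most abundant transcripts took a smaller part of the library at 10 mg/kg/d. The 10 most abundant genes of each library held 22.5, 25.2, 27.1 and 20.4% of the counts in the dosed livers of dams 2276, 2277, 2283 and 2284. In the controls of dams 2263, 2264, 2265, 2278 and 2280 they held 38.7, 29.1, 31.7, 27.6 and 31.3%. The groups did not overlap, although the highest dosed liver was within 1 percentage point of the lowest control. The mean was 23.8% ± 2.95 (SD, n = 4) against 31.7% ± 4.26 (SD, n = 5), a difference of -7.88 percentage points. The exact permutation p was 0.0159, two-sided, the smallest that 4 against 5 allows, and 0.0476 after adjustment over the 3 measures of library composition tried. This measure was chosen after the libraries were seen. Without dam 2284 the difference was -6.75 percentage points. Within the first run of dams it was -9.32 and within the second -5.70 percentage points, with too few dams in either for a test to pass.

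The other composition measures did not pass. The share of the 100 most abundant genes was 44.9 to 56.2% in the dosed livers and 52.8 to 62.3% in the controls (exact permutation p = 0.127). Genes with at least 10 counts numbered 10449 to 10904 against 10374 to 10937 (exact permutation p = 0.413). By dose, the share of the 10 most abundant genes had a median of 35.5% at 0.3, 34.4% at 1, 30.2% at 3 and 18.2% at 30 mg/kg/d.

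**Figure D4:**
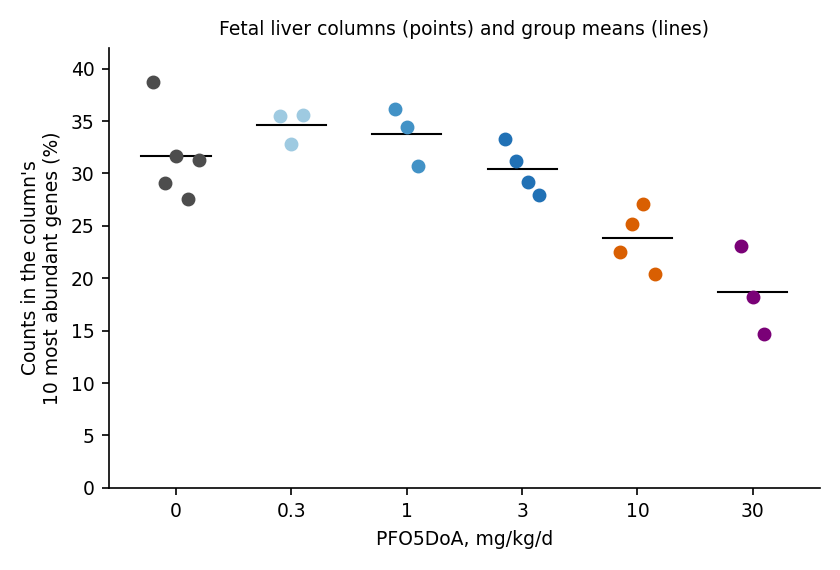
Share of counts in the 10 most abundant genes of each fetal liver library (points, 1 per dam) by PFO5DoA dose, with group means as lines. The 4 livers at 10 mg/kg/d lie between 20.4 and 27.1%, below all 5 controls.

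A set taken from other animals was read gene by gene. The 10 genes most abundant in the fetal livers of the PFO4DA control dams were followed in the PFO5DoA livers. Of these 10, 3 fell at 10 mg/kg/d and 0 rose (edgeR), where 7.68% of all genes tested fell and 7.0% rose, with a median log2 fold change of -0.76 against -0.02 over all genes. Without dam 2284, 2 of them fell, in the first run 2 and in the second 0. The second in rank averaged 41200 CPM in the controls and 14100 CPM in the dosed livers, with -1.54 as its log2 fold change (adjusted p = 9.97e-04, edgeR). The fourth averaged 31100 and 7520 CPM, a log2 fold change of -2.05 (adjusted p = 0.0033, edgeR). The first averaged 106000 and 72200 CPM and did not pass (adjusted p = 0.286, edgeR).

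The calls were also counted by level, grouping genes by their mean in the same PFO4DA controls, beside 7.68% falls and 7.0% rises over all genes tested. Above 1000 CPM, 26 of 108 genes fell and 10 rose. From 100 to 1000 CPM, 156 of 977 fell and 92 rose. From 10 to 100 CPM, 434 of 4715 fell and 362 rose. From 1 to 10 CPM, 244 of 4536 fell and 234 rose. Under 1 CPM, 24 of 1173 fell and 108 rose, and 79 of those rises were at least 4-fold. Without dam 2284, falls and rises numbered 22 and 11 above 1000 CPM, 122 and 101 from 100 to 1000 CPM, and 344 and 347 from 10 to 100 CPM. In the second run of dams, from 10 to 100 CPM, 21 fell and 37 rose. A small change is easier to call in a gene with many counts, and low genes can enter the test through dosed livers alone. The part of either in these shares was not tested, so the shares describe the calls only. Median log2 fold changes were close to 0 in each group, from -0.07 above 1000 CPM to 0.05 under 1 CPM.

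Genes higher in fetal than in maternal liver were called as falls more often than as rises. In control dams of PFO4DA, 1077 of the genes tested were at least 4-fold higher in fetal than in maternal liver, by means with 0.5 CPM added. At 10 mg/kg/d PFO5DoA 145 of them fell and 35 rose, with a median log2 fold change of -0.22 and 38 falls of at least 4-fold. Among the 10162 genes within 4-fold between the stages, 698 fell and 721 rose, with a median of 0.01. The fetal-stage genes thus held 13.5% falls and 3.25% rises where the table as a whole held 7.68% and 7.0%. The count of falls was 143 with another scaling of the libraries (RLE), 163 with DESeq2 and 155 with the run of dams as a covariate. Without dam 2284, 115 fell and 38 rose. In the first run of dams alone 78 fell and 24 rose, and in the second 19 fell and 8 rose. In maternal liver of the same dams 712 of these genes were tested, of which 46 fell and 48 rose. Of all 10615 genes tested there, 784 fell and 704 rose. The median log2 fold change of the 712 was -0.18 in maternal liver, against -0.04 over all genes tested there. The fetal median of -0.22 is over all 1077, so the 2 medians cover unlike sets. Whether the shift is particular to fetal liver was not tested.

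The genes at least 4-fold higher in maternal liver numbered 270, of which 50 rose and 41 fell in fetal liver. That was 33.7% in all, where 14.7% of all genes tested in fetal liver were called. Their median log2 fold change was -0.04 with quartiles of -0.61 and 0.71, and 25 of the rises were at least 4-fold. Without dam 2284, 53 rose and 35 fell. In the first run of dams alone 34 rose and 25 fell, and in the second 10 rose and 5 fell. A gene that is low in control fetal liver can enter the test through dosed livers alone, which can favour rises. These counts describe the genes that passed the filter, and its part in the rises was not tested. In maternal liver of the same dams, 20 of these 270 genes rose and 46 fell, where 704 of all 10615 genes tested there rose and 784 fell. By library, the fetal-stage genes held 28 to 36.2% of the counts in control fetal livers and 25.1 to 30.9% at 10 mg/kg/d. The maternal-stage genes held 1.64 to 2.05% in controls and 3.61 to 6.78% at 10 mg/kg/d, with no overlap. Their share was 3.08 to 4.64% at 3 mg/kg/d and 2.33 to 3.53% at 30 mg/kg/d, so it was not highest at the highest dose. These are whole-tissue RNA measurements, in which fewer cells of a type and less RNA per cell cannot be told apart. Cell type markers could not be looked up, so the part of blood-forming cells in these counts was not tested.

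The 2 runs of dams share no animal and gave separate estimates of the response. In the first run, 2 dosed and 3 control livers, 766 genes passed (7.12% of 10762 tested). In the second, 2 dosed and 2 control livers, 120 passed (1.11% of 10850). Of the 332 rises called in the first run and measured in both, 308 had a positive log2 fold change in the second run, or 92.8% where 50.8% of all genes did. Their median was 1.47 in the first run and 1.41 in the second. Of the 417 falls, 382 were negative in the second run, or 91.6% against 49.2% of all genes, with medians of -1.45 and -0.92.

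Genes called in both runs numbered 60 rises and 36 falls. The 60 rises were a large part of the 72 called in the second run, and the 36 falls of the 46 called there. Across the 10480 genes measured in both, the correlation of the log2 fold changes was 0.56, given as a description since genes are not independent. ENSRNOG00000069588 had a log2 fold change of -6.74 in the first run and -6.69 in the second, and ENSRNOG00000004009 had -5.51 and -5.61. Both genes were chosen on the livers of the 2 runs together, so a fall in each run was required by the choice. The 2 named rises were tested in the first run, at 8.61 for ENSRNOG00000017716 and 7.95 for ENSRNOG00000012851, fitted values that depend on how a count of 0 is treated. In the second run, where dam 2284 is one of the 2 dosed livers, they did not pass the filter on low counts.

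**Figure D5:**
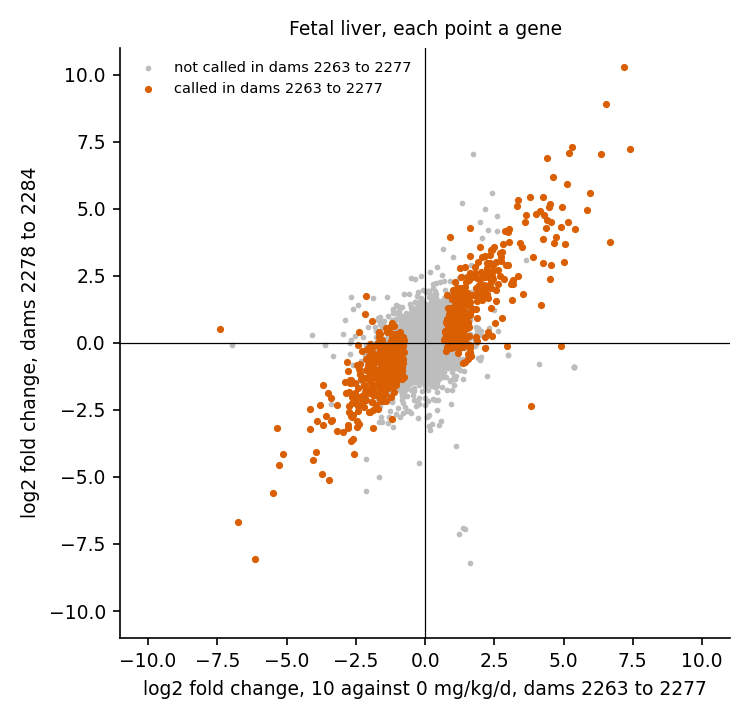
Log2 fold change of each gene between 10 and 0 mg/kg/d in fetal livers of the first run of dams (horizontal) and of the second run (vertical). Orange points are genes called in the first run. Of those, 308 of 332 rises and 382 of 417 falls have the same sign in the second run.

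Whether fetal and maternal liver of the same dams respond alike was tested as the interaction of stage and dose, with dam as a block. In maternal liver 704 genes rose and 784 fell at 10 mg/kg/d, together 14.0% of 10615 tested. The response differed for 230 of 11157 genes, 2.06%, being higher in fetal liver for 98 and lower for 132 (edgeR, adjusted p under 0.05). The median difference was 1.75 among the higher and -1.89 among the lower genes on the log2 scale. The count was 134 without dam 2277, 183 without dam 2284 and 345 without the control dam 2264. It was 458 with DESeq2, 676 with no filter on low counts, and 82 and 48 in the 2 runs of dams alone.

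The genes behind that difference were of several kinds. Among the 98, 17 rose in fetal and fell in maternal liver, 30 rose in fetal liver without passing in maternal liver, and 36 fell in maternal liver without passing in fetal liver. Among the 132, 58 fell in fetal liver without passing in maternal liver, 39 rose in maternal liver without passing in fetal liver, and 10 fell in fetal and rose in maternal liver. A few genes passed in the same direction in both tissues and differed in size, such as the 10 that fell in both.

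Of the 10201 genes tested in both tissues, 749 rose and 801 fell in fetal liver, and 684 rose and 751 fell in maternal liver. Rises in both numbered 243, which was 32.4% of the fetal and 35.5% of the maternal rises. Falls in both numbered 189, or 23.6% of the fetal and 25.2% of the maternal falls. Without dam 2284 in the fetal list, 234 rises and 160 falls were shared, and with the fetal list of a single run of dams 135 and 123 in the first, 52 and 13 in the second. Opposite calls were made for 19 fetal rises and 11 fetal falls. The fetal rises had a median log2 fold change of 0.83 in fetal and 0.42 in maternal liver, and the fetal falls -0.95 and -0.38, but the genes were chosen on the fetal values, which enlarges those.

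Maternal livers of the 4 dams expressed the 2 named rises as well. ENSRNOG00000017716 stood at 1.49, 1.13, 4.75 and 2.76 CPM in maternal liver of dams 2276, 2277, 2283 and 2284, with 1 count over the 5 maternal controls (edgeR adjusted p = 5.69e-06). ENSRNOG00000012851 stood at 2.12, 1.60, 16.2 and 9.39 CPM, with 0 counts in the 5 maternal controls (adjusted p = 5.42e-05, edgeR). Dam 2284, lowest of the fetal livers for both genes, was not the lowest of the maternal livers for either. In maternal liver at 30 mg/kg/d the first gene was at 3.91 to 11.0 CPM and the second at 1.39 to 5.71, so the first was higher there than at 10 mg/kg/d on average. For ENSRNOG00000017716 the fetal minus maternal difference was 1.89 (95% interval -3.23 to 7.02, adjusted p = 0.783, edgeR), which leaves a large difference in either direction possible.

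The falls differed between the tissues. ENSRNOG00000004009 was at 14.4 to 39.4 CPM in maternal controls and at 3.61, 8.57, 7.25 and 15.5 CPM in the dosed maternal livers, in the same order of dams. The highest dosed maternal liver, that of dam 2284, overlapped the controls. Its log2 fold change was -1.74 in maternal liver (SE 0.38, adjusted p = 0.00397, edgeR). The fetal minus maternal difference was -3.76 (SE 0.58, adjusted p = 0.00511, edgeR), a larger fall in fetal liver. The gene was chosen on its fetal fall, which is part of this difference, so the choice tends to enlarge it. ENSRNOG00000069588 held 0 counts in maternal liver of all 5 controls and all 4 dosed dams, and its response there could not be measured.

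PFO5DoA and PFO4DA were compared at the matched dose of 10 mg/kg/d in fetal liver, each against its own controls, the single pair of compounds in the series. PFO4DA changed 298 of 11732 genes, 2.54%, with 218 rises and 80 falls. The response to PFO5DoA differed for 477 genes, 4.07% of those tested, higher for 172 and lower for 305 (edgeR, adjusted p under 0.05). The compounds differed most often in genes lowered by the longer one: 258 of the 305 fell with PFO5DoA and did not pass with PFO4DA, and 11 fell with both. Of the 172, 117 rose with PFO5DoA without passing with PFO4DA and 31 rose with both. Genes that moved in opposite directions with the 2 compounds, both past the test, were not among the differences. The count was 288 without 1 PFO4DA dam (dam 2303), 492 without dam 2284 and 173 with the libraries at 0 and 10 mg/kg/d alone. It was 453 with the runs of dams as covariates, and no fit within runs was made.

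The sets raised by the shorter compound were mostly raised by the longer one. Of all 11101 genes tested with both, 769 rose and 878 fell with PFO5DoA, and 525 rose and 658 fell with PFO4DA at 62.5 mg/kg/d. Of 218 genes that PFO4DA raised at 10 mg/kg/d in its own table, 205 had a positive log2 fold change with PFO5DoA, where 48.1% of all genes did, and 150 were called, 68.8% of the PFO4DA and 19.5% of the PFO5DoA rises. Their median was 1.10 with PFO4DA and 1.36 with PFO5DoA. Of 77 falls, 50 were shared, 64.9% of the PFO4DA and 5.69% of the PFO5DoA falls. At 62.5 mg/kg/d PFO4DA, a dose that is not matched, 368 rises were shared, 70.1% of the PFO4DA and 47.9% of the PFO5DoA list. There 454 falls were shared, 69.0 and 51.7%, and 1 gene rose with PFO5DoA and fell with PFO4DA. Without dam 2284 the shared rises and falls numbered 158 and 46 at the matched dose and 376 and 399 at 62.5 mg/kg/d PFO4DA. With the first run of PFO5DoA dams alone they numbered 122 and 29 at the matched dose, and with the second 50 and 6.

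The named genes showed the difference in size. ENSRNOG00000069588 was at 3.02 to 33.6 CPM in PFO4DA control livers and at 13.1, 9.17, 17.0 and 5.17 CPM in the livers dosed with it at 10 mg/kg/d, inside the control range. The difference between the compounds was -6.49 on the log2 scale (95% interval -8.32 to -4.65, adjusted p = 1.43e-05, edgeR). At 62.5 mg/kg/d PFO4DA the gene held 0.0991 to 2.18 CPM. ENSRNOG00000004009 was at 40.5 to 220 CPM in PFO4DA controls and at 47.3, 44.6, 37.6 and 20.3 CPM in the dosed livers, and its log2 fold change was -1.51 (adjusted p = 0.00699, edgeR). The compounds differed by -4.09 (95% interval -5.12 to -3.07, adjusted p = 1.4e-06, edgeR). Both genes were chosen on their fall with PFO5DoA, which tends to enlarge these differences between the compounds and to lower their p.

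ENSRNOG00000017716 had 1 count in the 4 livers at 10 mg/kg/d PFO4DA and 1 in the 6 controls, against 262 counts in the 4 livers at 10 mg/kg/d PFO5DoA. It reached 0.702 to 3.03 CPM at 30 and 3.67 to 7.93 at 62.5 mg/kg/d PFO4DA. ENSRNOG00000012851 was at 0.64, 0.238, 1.05 and 0.995 CPM at 10 mg/kg/d PFO4DA and at 1.71 to 4.50 at 62.5. For neither did the difference between compounds pass, with edgeR adjusted p of 0.319 and 0.577. For ENSRNOG00000012851 the difference was 4.08 with a 95% interval from -2.09 to 10.24. For ENSRNOG00000017716 it was 8.44 with an interval from 0.14 to 16.73, whose lower end is near 0. The interval takes a fixed multiple of the standard error on either side. Whether it excludes 0 depends on that multiple, so it is not read as a difference between the compounds. With 0 counts in the PFO5DoA controls these intervals are wide, and the missed threshold does not show that the compounds act alike on these genes.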

How the data were processed

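Liver RNA was measured by TempO-Seq, a targeted assay in which probe pairs ligated on each RNA are sequenced, here with 22253 probes for 20924 genes per the labels' protocols. The authors deposited 1 table of estimated counts per compound, not normalized, with decimals in 12.2% and 11.8% of the values. STAR 2.7.8a, Partek, DESeq2 and build mRatBN7.2 are named, without roles, per the submitters' processing notes. Counts were rounded to whole numbers here. Doses came from the dam number that opens each column name, and life stage from the correlation rule given in the report. All 111 columns were mapped.

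Tests used R 4.3.3 and edgeR 4.0.16 (filterByExpr by group, TMM scaling, estimateDisp, glmQLFit with robust on, glmQLFTest) with Benjamini-Hochberg adjustment over all genes tested, in 1 fit over the fetal livers at 0, 0.3, 1, 3, 10 and 30 mg/kg/d. Maternal livers, and the fetal livers of both compounds, had fits of their own. Shared lists with PFO4DA came from a fit of its table alone. Standard errors were taken from the quasi-likelihood F, and intervals are 1.96 standard errors on either side. The 0.1 mg/kg/d dams were left out. Alternatives were DESeq2 1.42.0, RLE scaling, other filters and fits, runs of dam numbers, the replicate number as a block and leaving out each dam. No 2 libraries of a group agreed within sampling noise (chi-square divided by its degrees of freedom 42.3 or more). The steps were tested on simulated data.

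The members and gene lists were chosen with earlier results of these data known. Named genes were to be the 15 largest rises and 15 largest falls with a symbol, an adjusted p under 0.05, separated groups and a mean of at least 5 CPM in either group. No symbol could be matched, so the 2 largest of each are given, and 39 gene lists were not looked up. Counting floors of 3 counts cover counting error only.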

Additional observations from a re-analysis of the deposited data

Results flagged for a closer look

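The response of fetal liver at 10 mg/kg/d PFO5DoA differed from that of maternal liver in 230 genes by the test of the difference, and from the fetal response to PFO4DA in 477. ENSRNOG00000004009 fell further in fetal than in maternal liver, by a log2 difference of -3.76, and further with PFO5DoA than with PFO4DA, by -4.09. For ENSRNOG00000069588 the difference between the compounds was -6.49. Both genes were chosen as the largest falls in fetal liver at 10 mg/kg/d PFO5DoA. That fall is part of each of these differences, so the choice tends to enlarge them.

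Of 39 groups of 4 to 10 livers checked for a liver far from the others, 4 held one, where chance gives about 5% of groups. All 4 are a single count in a group otherwise at 0. ENSRNOG00000017716 and ENSRNOG00000012851 each stood at 0.0944 CPM in 1 PFO4DA control fetal liver, dam 2308. ENSRNOG00000017716 also stood at 0.0954 CPM in the fetal liver of dam 2305 at 10 mg/kg/d PFO4DA and at 0.0992 CPM in the maternal control liver of dam 2280.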

How the results depend on the processing

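For fetal liver at 10 against 0 mg/kg/d, 1690 genes compare with 808 when only these livers were fitted, 508 with a minimum fold of 1.5, 766 and 120 in the first and second run of dams alone, and 1351 to 1845 without each dam in turn. DESeq2 gave 1955, RLE scaling 1702, no filter 1425 and a minimum of 5 CPM 1471. The fetal minus maternal count of 230 became 458 with DESeq2, 676 with no filter on low counts, 82 and 48 in the 2 runs alone, and 134 to 345 without each dam. The count of 477 between compounds became 309 with no filter, 173 with 0 and 10 mg/kg/d alone and 288 to 546 without each dam. Some of these fits hold fewer samples, and the causes of the differing counts were not tested. With the replicate number as a block, which used replicates 1 to 4, the fetal count was 1264, against 726 for the same livers without the block, and the count between compounds was 136. Deviations of same-numbered livers correlated at 0.035, 0.4, 0.114 and 0.299, and those of other numbers at -0.357 to 0.34 with a mean of -0.052. Pairing was to be assumed only where every same-numbered pair was over 0.1, which 1 was not, and 2 of the 4 dosed livers correlated best with their own number, so whether the numbers pair the dams was not settled. The log2 fold changes of the 4 named genes kept their sign and passed in every fit that tested them. These genes were chosen as the largest called changes with separated groups, so the choice all but fixed that outcome. The 2 rises were not tested with a minimum of 5 CPM, with 0 and 10 mg/kg/d alone, in the second run or in the replicates 1 to 4. Keeping the fetal library of dam 2279 was not run, since it holds under 0.25 of the median total. Chosen after seeing the data were the runs for the stage and compound differences, replicates 1 to 4 without a block, all settings for library composition, for maternal liver and for PFO4DA alone, and the gene classes and shared lists without dam 2284 and by run.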

Other observations

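The 4 dosed fetal livers did not take equal parts in the response. The liver of dam 2284 was the lowest of the 4 for 46.9% of the 160 rises of at least 4-fold and the highest for 28.7%. That of dam 2283 was the highest for 48.1% and the lowest for 3.75%. Over all genes tested, dam 2284 was lowest for 32.5% and highest for 30.7%. Among the 115 falls of at least 4-fold, dam 2284 was the lowest for 48.7%. By root mean square log2 difference over all genes tested, with 0.5 CPM added, its liver was 0.544 from the mean of the 30 mg/kg/d livers and 0.639 from the mean of the other livers at its own dose. For the other 3 dosed livers the distance to the 30 mg/kg/d mean was 0.608 to 0.677 and that to their own dose 0.389 to 0.526. The genes were chosen on these livers, so the shares are descriptions. The library of dam 2284 held 9574350 counts, the second lowest of the 4, and had the highest TMM factor of the fetal libraries, 1.35. Dam 2284, like dam 2283 and all dams at 30 mg/kg/d, belonged to the second run of dams. The part of library total, scaling and run in the position of dam 2284 was not tested.

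The smaller share of the most abundant genes was also seen in maternal liver, where the 10 most abundant genes held 26.7 to 33.9% of the counts in 5 controls and 18.8 to 24.3% at 10 mg/kg/d PFO5DoA. In fetal liver with PFO4DA the values were 26.0 to 35.1% in 6 controls and 24.2 to 29.0% at 10 mg/kg/d, which overlap. Neither was tested.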
